A study of Mus musculus with 20 samples.

Results

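The heat shock proteins and their DNAJ co-chaperones, 72 of the 26214 mouse genes listed in both comparison tables, were followed in hearts that received a Zeb2os vector. Members were taken by gene symbol alone: the Hspa, Hspb, Hspd, Hspe, Hsph and Hsp90 genes (27 HSP genes) and the Dnaja, Dnajb and Dnajc genes (45 DNAJ genes), with names marked as pseudogenes left out. RNA came from the apex of the heart of 20 mice of the FVB/NRj strain, wild-type and aged 28 days, with 5 mice in each of 4 groups. All were uninjured, and each had been injected behind the eye with an AAV9 vector, a virus capsid that reaches heart muscle among other tissues. The groups were hTNNT2 Zeb2os (3 males of 5), hTNNT2 control (0 males of 5), CMV Zeb2os (1 male of 5) and CMV control (2 males of 5). CMV is a viral promoter active in many cell types, and hTNNT2 is named for the human cardiac troponin T gene, whose promoter is used to drive expression in cardiomyocytes. What the control vectors carried, the dose and the age at injection were not given in the sources used here. A comparison, of 5 against 5 mice, was available as the authors' own result per gene, so values of single mice were not analysed here.

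Chaperones bind unfolded stretches of other proteins and keep them from clumping. HSP70 proteins do so in cycles of ATP use that a DNAJ protein starts by delivering the client and that an exchange factor such as an HSP110 protein ends, while HSP90 proteins finish the folding of kinases, receptors and the myosin of muscle. Small HSPB proteins hold unfolded proteins without ATP and are abundant in the contracting heart, and the chaperonin of mitochondria encloses single proteins in a barrel. Under heat or protein stress, heat shock factor 1 (HSF1) binds heat shock elements before a subset of these genes and raises their transcription. A separate response, to unfolded proteins in the endoplasmic reticulum (ER), acts on ER chaperones through the ER stress element.

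No member passed the test in either comparison. A gene was called where the authors' DESeq2 adjusted p-value was under 0.05. Of the members with an adjusted p, 0 of 70 were called for hTNNT2, where 0.0385% of all genes were, and 0 of 71 for CMV, where 0.00469% of all genes were. An unadjusted p under 0.05 stood beside 0 of 72 members for hTNNT2 (3.92% of all genes) and 1 of 71 for CMV (1.67% of all genes). That gene was Dnajb1, and a count of 1 lies near the background. The most negative log2 fold change was -0.15 in each comparison, and both genes, Hsph1 for hTNNT2 and Dnajb1 for CMV, are known to be induced by heat. Of a list of 13 heat-inducible members, 13 were below 0 for hTNNT2 (median -0.063, where 51.5% of all genes with a mean normalised count of 50 or more were), or 12 with fold changes centred on the median gene, and 8 were for CMV (47.8% of all such genes). Markers of cardiomyocytes were below 0 in 9 of 9 cases for hTNNT2 (median -0.065) and 1 of 9 for CMV, and their part in these counts was not tested. No list was tested.

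The letters of both response elements were searched in the members' promoters, and 5 windows that hold a match are shown before the values. Each runs from 250 bases before to 50 bases after a start site, as given by RefSeq on GRCm38.p6, and 58 of the 72 members had such a window. Capitals mark every match to GAANNTTC or TTCNNGAA on either strand, which are pairs of the unit that HSF1 binds. For Hspa5 they mark instead the ER stress element, CCAAT and CCACG with 9 bases between them, on either strand. Hspa1a (chr17:34972107-34972406, minus strand) and Hspa1b (chr17:34959189-34959488, minus strand) encode the stress-induced HSP70. Hsph1 (chr5:149636266-149636565, minus strand) encodes an HSP110. Hspe1 (chr1:55087898-55088197, plus strand) encodes the lid of the mitochondrial chaperonin, and Hspa5 (chr2:34771840-34772139, plus strand) encodes the HSP70 of the ER.
Hspa1a: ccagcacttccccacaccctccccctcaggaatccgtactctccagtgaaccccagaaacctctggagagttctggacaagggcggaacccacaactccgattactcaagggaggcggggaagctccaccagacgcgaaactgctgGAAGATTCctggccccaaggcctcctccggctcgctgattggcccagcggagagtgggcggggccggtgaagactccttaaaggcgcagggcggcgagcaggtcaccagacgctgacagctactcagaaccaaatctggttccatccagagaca
Hspa1b: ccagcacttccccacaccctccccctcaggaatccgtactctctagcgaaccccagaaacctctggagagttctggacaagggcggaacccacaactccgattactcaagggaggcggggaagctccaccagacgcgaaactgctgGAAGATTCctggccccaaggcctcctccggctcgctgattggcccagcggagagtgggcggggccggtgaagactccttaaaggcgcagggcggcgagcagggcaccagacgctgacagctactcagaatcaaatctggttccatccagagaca
Hsph1: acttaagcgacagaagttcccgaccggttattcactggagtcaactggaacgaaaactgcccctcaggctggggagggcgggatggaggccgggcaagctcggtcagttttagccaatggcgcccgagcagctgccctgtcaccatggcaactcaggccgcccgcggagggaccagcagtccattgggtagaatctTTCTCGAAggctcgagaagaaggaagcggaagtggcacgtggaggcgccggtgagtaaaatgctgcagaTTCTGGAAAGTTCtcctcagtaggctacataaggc
Hspe1: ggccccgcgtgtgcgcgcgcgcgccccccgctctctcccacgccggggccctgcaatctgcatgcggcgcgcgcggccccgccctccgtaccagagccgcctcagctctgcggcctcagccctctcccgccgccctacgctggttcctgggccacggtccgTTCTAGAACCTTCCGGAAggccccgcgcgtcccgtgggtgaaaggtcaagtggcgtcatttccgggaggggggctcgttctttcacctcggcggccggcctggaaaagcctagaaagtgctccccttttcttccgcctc
Hspa5: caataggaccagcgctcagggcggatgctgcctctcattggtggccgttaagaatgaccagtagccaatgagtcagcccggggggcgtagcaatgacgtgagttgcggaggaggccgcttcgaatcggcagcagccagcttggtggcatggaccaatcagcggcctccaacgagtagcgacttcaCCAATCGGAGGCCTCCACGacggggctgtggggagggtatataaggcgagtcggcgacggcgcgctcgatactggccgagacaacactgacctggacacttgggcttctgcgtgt

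The windows of Hspa1a and Hspa1b were identical at 296 of 300 positions, with the match at the same place, -104 counted from the start. GAANNTTC was found on either strand in 7 of 10 heat-inducible members with a window (70%): Dnaja1, Hspa1a, Hspa1b, Hspb1, Hspd1, Hspe1 and Hsph1. It was found in 7 of 48 other members (14.6%) and in 9.04% of the 27025 genes with a window. TTCNNGAA stood in 4 of the 10 heat-inducible members (40%), in 2 of 48 others (4.17%) and in 9.6% of all genes. The 3-unit form (GAA, TTC and GAA with 2 bases between units), which contains both pairs, stood in Hspd1, Hspe1 and Hsph1 and, outside the list, in Dnajb6, against 0.662% of all genes. An Hspd1 window overlaps the Hspe1 window on the other strand, and the matches of both genes are the same bases, counted for each gene. With the near-identical windows of Hspa1a and Hspa1b, the shares of the heat-inducible list thus rest on fewer separate promoters than genes. The ER stress element stood in Hspa5, Hsp90b1 and Dnajc3, 3 of the 7 ER members with a window (42.9%), and in 0.137% of all genes. These are matches of letters in a fixed window, not binding sites. Neither Dnajb1 window held a heat shock match, which says only that these letters are not in them.

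Levels were read as the mean normalised count over the 10 libraries of the CMV comparison, divided by the summed exon length in kilobases of the GENCODE annotation. The small heat shock gene Hspb7, which is specific to heart and skeletal muscle, stood first with 20101 per kb in the authors' deposited table, followed by the HSP90 gene Hsp90ab1 with 18344 per kb. Hspa9, the mitochondrial HSP70, came next with 8428 per kb in the authors' deposited table, close to Hspb8 at 8406 per kb and above Hspb6 at 7277 per kb. The ER chaperones Hspa5 and Hsp90b1 had 6223 and 5496 per kb in the same authors' deposited table, and the chaperonin subunit Hspd1 had 4473 per kb. Whether neighbours in this order differ beyond their spread cannot be said, since the tables hold 1 mean per gene.

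The copies of the stress-induced HSP70 stood near the other end. Hspa1b had 56.1 and Hspa1a 28.1 per kb in the authors' deposited table, ranks 60 and 63 of 72, while Hspa8, an HSP70 gene of high basal level, had 1270 per kb. Of the 50-base stretches of their transcripts, 62.3%, 66.3% and 74.8% also stand in transcripts of other genes, against 4.1% for Hspa9. How such reads were counted is not known, so these levels and ranks are uncertain. Dnajb1, the DNAJ partner that is induced with HSP70, had 323 per kb and Hsph1 had 416 per kb in the authors' deposited table, ranks 38 and 34, in the middle of the order. In all, 63 members were well expressed, meaning a mean normalised count of 50 or more in both tables. The other 9 (Dnajb3, Dnajb7, Dnajb8, Dnajb13, Dnajc5b, Dnajc5g, Dnajc6, Dnajc22 and Hspb9) lay below that, and Dnajb8 was listed at 0 in the authors' deposited CMV table. Several of these are best known from testis or brain.

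**Figure D1:**
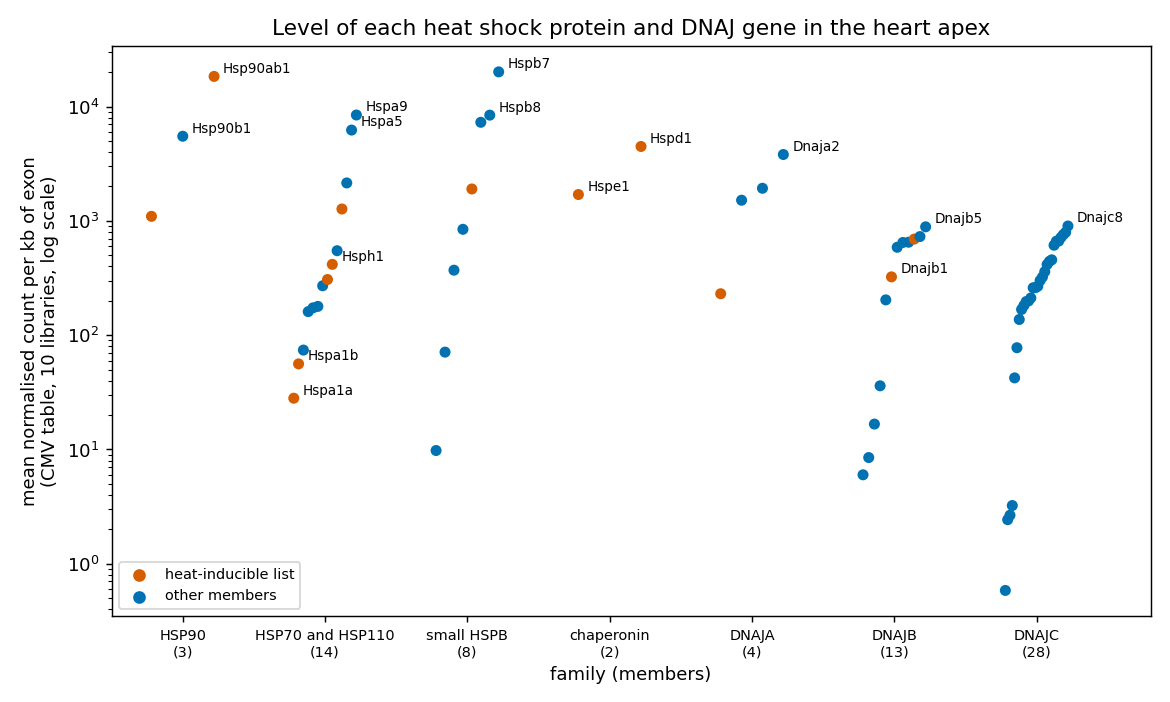
Level of each member in the CMV comparison, as the mean normalised count per kilobase of exon on a log axis, 1 point per gene, grouped by family with the number of members in brackets (Dnajb8, listed at 0, is not drawn). Hspb7 and Hsp90ab1 stand at the top at 20101 and 18344 per kb, and the stress-induced Hspa1a and Hspa1b stand at 28.1 and 56.1 per kb. Levels of genes that share sequence with others, such as this pair, are uncertain, since the counting of such reads is not known.

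As checks on the tissue and the vector, the cardiomyocyte gene Myh6 averaged 1935770 normalised counts for hTNNT2 and 1645870 for CMV, and Zeb2os had a log2 fold change of 4.53 for hTNNT2 and 3.66 for CMV, in the authors' deposited tables. Of 5 erythroid genes, the 4 globin genes Hba-a1, Hba-a2, Hbb-bs and Hbb-bt were listed at 0 in both of the authors' deposited tables, while Alas2, the haem synthesis enzyme of red cells, averaged 3556 normalised counts for hTNNT2 and 2940 for CMV. Whether globin reads were left out of the counting was not given in the sources used here. A positive log2 fold change means higher in Zeb2os hearts. The standard error in these tables was smaller in genes of low count. Its median was 0.0073 for hTNNT2 and 0.0054 for CMV at mean counts under 0.5, against 0.078 and 0.068 at 200 to 1000. The fold changes may therefore have been shrunken toward 0, most of all in genes of low count. They are given on the deposited scale. Among markers of cell types, Lyz2 for hTNNT2 was the only one called. Cardiomyocyte markers were above 0 in 0 of 9 cases for hTNNT2 (median log2 fold change -0.065) and 8 of 9 for CMV (median 0.039). Macrophage and monocyte markers were above 0 in 9 of 9 cases for hTNNT2 (median 0.19) and 4 of 9 for CMV (median -0.011), and fibroblast markers in 6 of 7 (median 0.12) and 5 of 7 (median 0.011). Smooth muscle markers were above 0 in 6 of 6 cases for hTNNT2 (median 0.11) and 0 of 6 for CMV (median -0.083), and endothelial markers in 3 of 6 (median 0.0022) and 0 of 6 (median -0.042). Markers of T, B and NK cells were above 0 in 0 of 6 cases for hTNNT2 (median -0.045) and 5 of 6 for CMV (median 0.017), and those of Schwann cells and nerve in 2 of 4 and 1 of 4. Their part in the values of the chaperones was not tested, and in bulk tissue fewer cells of a type and less RNA per cell cannot be told apart. Sex was unevenly spread over the hTNNT2 groups, and without values per mouse it cannot be told apart from the vector.

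The HSP90 genes had values between -0.087 and 0.026. Hsp90aa1, the form induced by heat, had a log2 fold change of -0.063 (SE 0.077, p = 0.413) for hTNNT2 Zeb2os over hTNNT2 control and -0.087 (SE 0.065, p = 0.183) for CMV in the authors' deposited tables. Hsp90ab1, made at a high basal level and raised further by heat, had -0.040 (SE 0.073) for hTNNT2 and 0.0066 (SE 0.054) for CMV in the authors' deposited tables. Hsp90b1, the HSP90 of the ER, had 0.026 (SE 0.063) for hTNNT2 and 0.0085 (SE 0.055) for CMV in the authors' deposited tables. All 6 of these 95% intervals included 0, and every adjusted p that a member had, in either comparison, was 1 or rounded to 1.00.

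Among the 14 HSP70 and HSP110 genes, the 4 most negative values for hTNNT2 all belonged to the heat-inducible list. Hsph1, an exchange factor for HSP70, had the most negative value of all members for hTNNT2, -0.15 (SE 0.081, 95% interval -0.31 to 0.0059, p = 0.0591), and -0.057 (SE 0.070, p = 0.412) for CMV in the authors' deposited tables. Its mean normalised counts were 3765 for hTNNT2 and 3025 for CMV in the authors' deposited tables. Hspa1a had -0.098 (SE 0.058, p = 0.0901) for hTNNT2 and -0.062 (SE 0.048, p = 0.196) for CMV in the authors' deposited tables, from mean counts of 109.5 and 83.3. Its near-identical copy Hspa1b had -0.093 (SE 0.064, p = 0.145) for hTNNT2 and -0.049 (SE 0.054, p = 0.366) for CMV in the authors' deposited tables. The coding sequences of this pair were 99.4% identical, so reads could be split between them and neither value is certain by itself.

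Hspa4l, a further HSP110 gene, had -0.10 (SE 0.069, p = 0.138) for hTNNT2 and 0.010 (SE 0.042) for CMV in the authors' deposited tables. Hspa8, the main basal HSP70 of the cytosol, had -0.053 (SE 0.077) for hTNNT2 and -0.046 (SE 0.066) for CMV in the authors' deposited tables. Hspa9 and Hspa5, the most abundant HSP70 genes, were close to 0: Hspa9 had -0.038 for hTNNT2 and 0.014 for CMV, and Hspa5 had 0.0010 and 0.023, in the authors' deposited tables. Hspa13, an HSP70-like ATPase of the ER, had the highest hTNNT2 value of the family, 0.061 (SE 0.065) in the authors' deposited table. Hspa12a, which encodes a distant HSP70 relative, had the highest CMV value, 0.066 (SE 0.065) in the authors' deposited table.

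Of the 6 small heat shock genes of muscle, 2 were above 0 for hTNNT2 (median -0.020, where 48.5% of all well-expressed genes were) and 5 for CMV (median 0.041, where 52.2% were). The cardiomyocyte markers were above 0 in 0 of 9 cases for hTNNT2 and 8 of 9 for CMV, and their part in these counts was not tested. The difference of the counts was not tested, and none of the 6 genes was called in the difference between the comparisons. Hspb7 had -0.050 (SE 0.082) for hTNNT2 and 0.037 (SE 0.058) for CMV in the authors' deposited tables. Hspb6 (Hsp20) and Hspb8, the partner of the co-chaperone Bag3, had 0.0014 and -0.0067 for hTNNT2 and 0.032 and 0.045 for CMV in the authors' deposited tables. Hspb1 (Hsp25), induced by heat as well, had -0.033 for hTNNT2 and was the single one below 0 for CMV, at -0.039, in the authors' deposited tables. Hspb2 had -0.089 (SE 0.082, p = 0.273) for hTNNT2 and 0.10 (SE 0.068, p = 0.139) for CMV in the authors' deposited tables. It overlaps the alpha-crystallin gene Cryab, on the other strand, by 1030 bases on chromosome 9. Of its 50-base stretches 28.04% also stand in Cryab, which had -0.062 (SE 0.081) for hTNNT2 and 0.057 (SE 0.056) for CMV in the authors' deposited tables. Reads of the overlapping part could be counted for either gene, as no strand setting is known.

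The chaperonin genes Hspd1 and Hspe1 lie head to head on chromosome 1 and overlap by 112 bases. Hspd1 had -0.046 for hTNNT2 and 0.012 for CMV, and Hspe1 had -0.0021 and 0.012, in the authors' deposited tables. Of the 9 mitochondrial members, 3 were above 0 for hTNNT2 (median -0.023) and 7 for CMV (median 0.012), where 48.5% and 52.2% of all well-expressed genes were.

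The DNAJ genes held the member with the smallest CMV p. Dnajb1, which stimulates HSP70 and is itself induced by HSF1, had -0.14 (SE 0.083, p = 0.0839) for hTNNT2 and -0.15 (SE 0.071, 95% interval -0.29 to -0.010, p = 0.0356, adjusted p 1) for CMV in the authors' deposited tables. Its mean normalised counts were 1278 for hTNNT2 and 1036 for CMV in the authors' deposited tables. Dnaja1, a further heat-induced partner of HSP70, had -0.13 (SE 0.083, p = 0.123) for hTNNT2 and -0.087 (SE 0.071, p = 0.22) for CMV in the authors' deposited tables.

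The other DNAJA genes were not on the heat-inducible list. Dnaja2, Dnaja3 and Dnaja4 had -0.037, -0.027 and -0.021 for hTNNT2 and 0.056, 0.036 and 0.063 for CMV in the authors' deposited tables. Of the 50-base stretches of Dnaja4, 51.9% also stand in the gene Wdr61, which overlaps it on the other strand by 1581 bases. Among the 9 well-expressed DNAJB genes, Dnajb9, an ER co-chaperone, was the only one above 0 for hTNNT2 (0.030 in the authors' deposited table). For CMV, 5 of the 9 were. Of all well-expressed genes, 48.5% were above 0 for hTNNT2 and 52.2% for CMV. The family median was -0.044 for hTNNT2 and 0.020 for CMV. Dnajb4 had -0.032 for hTNNT2 and 0.049 for CMV, and Dnajb5 had -0.044 and -0.013, in the authors' deposited tables. Dnajb6, known to hold back polyglutamine aggregates and mutated in a human muscular dystrophy, had -0.020 (SE 0.064) for hTNNT2 and -0.061 (SE 0.067) for CMV in the authors' deposited tables. Of its 50-base stretches, 42.8% also stand in other genes.

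The DNAJC genes, the most varied class, had medians of 0.0055 for hTNNT2 and 0.018 for CMV and held the highest value of all members in each comparison. Dnajc19, of the mitochondrial inner membrane and mutated in a human cardiomyopathy with ataxia, had 0.097 (SE 0.058, p = 0.0979) for hTNNT2 and 0.025 for CMV in the authors' deposited tables. Dnajc17, which takes part in splicing, had 0.052 for hTNNT2 and 0.11 (SE 0.071, p = 0.128) for CMV in the authors' deposited tables. Its mean counts were low, 126.9 for hTNNT2 and 101.5 for CMV, and 25.4% of its 50-base stretches also stand in other genes. Dnajc9, a histone chaperone, had 0.034 for hTNNT2 and 0.098 (SE 0.071, p = 0.164) for CMV in the authors' deposited tables. Dnajc18 had 0.011 (SE 0.064) for hTNNT2 and 0.084 (SE 0.049, p = 0.0857) for CMV in the authors' deposited tables. At the other end, Dnajc21, a factor of ribosome assembly, had -0.11 (SE 0.066, p = 0.0886) for hTNNT2 and -0.0055 for CMV in the authors' deposited tables. Dnajc25 had -0.11 (SE 0.076, p = 0.136) for hTNNT2 and -0.017 for CMV, and Dnajc27 had 0.0022 and -0.12 (SE 0.066, p = 0.0613), in the authors' deposited tables. None of these DNAJC genes belongs to the heat-inducible list.

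**Figure D2:**
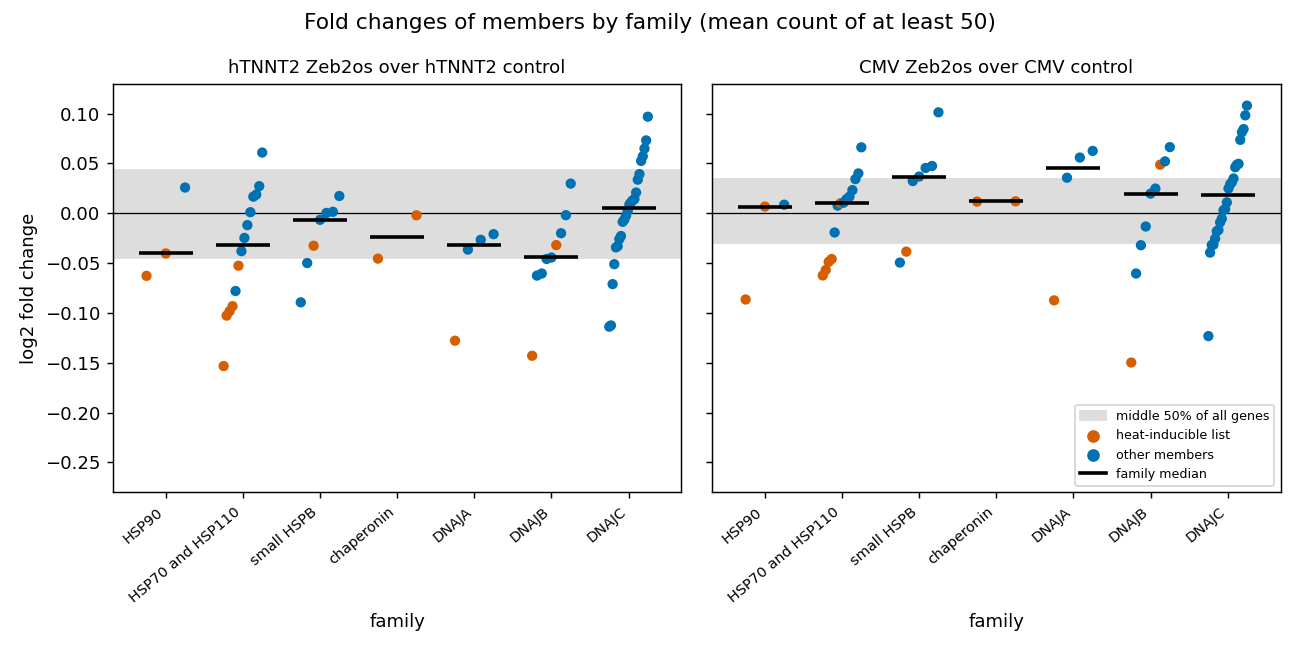
Log2 fold change of Zeb2os over control for each member with a mean normalised count of 50 or more in the table shown, by family, with hTNNT2 on the left and CMV on the right. Points are genes, black bars are family medians and the grey band holds the middle 50% of all such genes. The lowest points in the HSP90, HSP70, DNAJA and DNAJB columns are heat-inducible genes, and the family medians lie between -0.044 and 0.046.

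The heat-inducible list held 13 members: Hspa1a, Hspa1b, Hspa8, Hsph1, Hspa4l, Dnajb1, Dnajb4, Dnaja1, Hsp90aa1, Hsp90ab1, Hspb1, Hspd1 and Hspe1. It mixes genes that are low without stress, such as Hspa1a, with genes of high basal level that HSF1 also acts on, such as Hsp90ab1 and Hspa8. For hTNNT2, 13 of 13 were below 0 (median -0.063), where 51.5% of all well-expressed genes were. With fold changes centred on the median gene, 12 of 13 were, since Hspe1 turned sign. For CMV, 8 of 13 were below 0 (median -0.046), where 47.8% of all well-expressed genes were. The 50 well-expressed members outside the list were below 0 in 27 cases for hTNNT2 (median -0.0044) and 14 for CMV (median 0.025), and the median gene of the tables lay at -0.0023 for hTNNT2 and 0.0026 for CMV. The 8 below 0 for CMV were Hspa1a, Hspa1b, Hspa8, Hsph1, Dnajb1, Dnaja1, Hsp90aa1 and Hspb1. The list was chosen with earlier results of these data known, and these counts carry no test.

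Sequence sharing touches many of them. Of the 50-base stretches of the transcripts, 74.8% of Hspa8, 66.3% of Hspa1a, 62.3% of Hspa1b, 60.4% of Hspb1, 58.5% of Hsp90aa1, 44.8% of Hspe1, 44.8% of Hspd1 and 28.8% of Dnaja1 also stand in transcripts of other genes, such as Hspa1b for Hspa1a and the pseudogene Hsp25-ps1 for Hspb1. Leaving out these 8, a choice made after seeing the data, left Hsph1, Dnajb1, Hspa4l, Hsp90ab1 and Dnajb4. Of them 5 of 5 were below 0 for hTNNT2 (median -0.10) and 2 of 5 for CMV (median 0.0066). For CMV the median of the list was -0.046 with these 8 members and 0.0066 without them. The part of shared sequence in this was not tested. How reads of shared sequence were counted was not given in the sources used here.

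**Figure D3:**
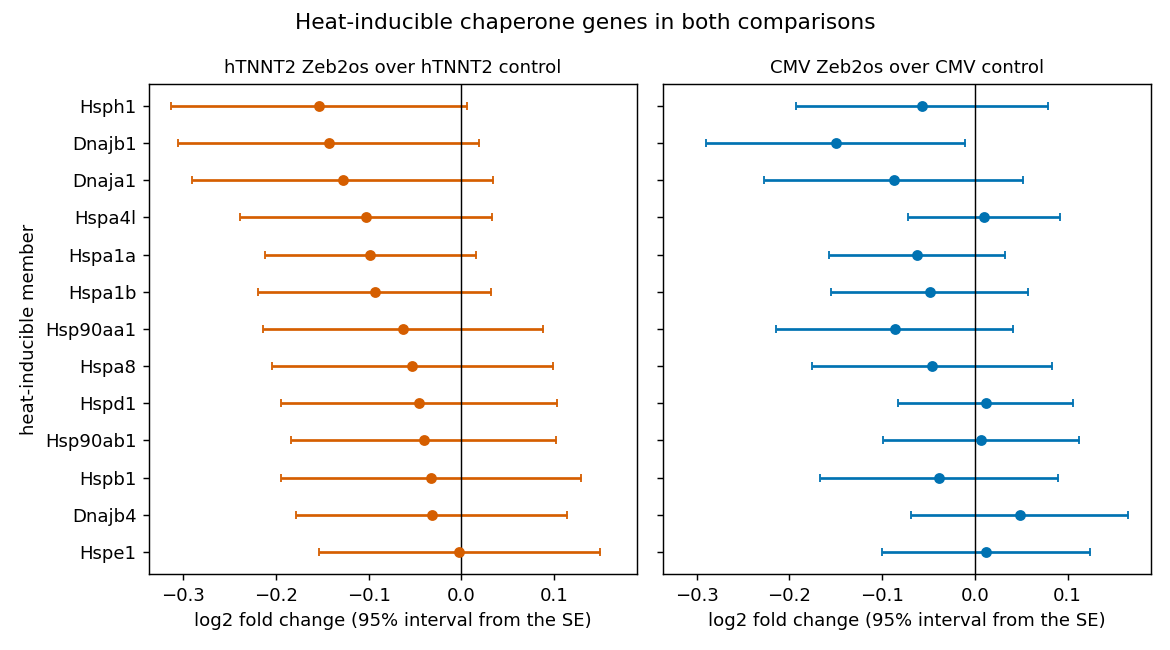
Log2 fold change with its 95% interval for the 13 heat-inducible members, with hTNNT2 Zeb2os over hTNNT2 control on the left and CMV Zeb2os over CMV control on the right. The hTNNT2 points run between -0.15 for Hsph1 and -0.0021 for Hspe1, and every interval but that of Dnajb1 for CMV includes 0.

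The responses to both vectors were set against each other with the difference of their log2 fold changes (hTNNT2 minus CMV). Its error combines the standard errors of both tables, and its 2-sided normal p received a Benjamini-Hochberg correction across 20754 genes with a p-value in both. No member was called in the difference (0 of 71, where 0.00482% of all genes were), and 0 had an unadjusted p under 0.05, where 2.65% of all genes did. Hspb2 had the smallest p, with a difference of -0.19 (SE 0.106, 95% interval -0.40 to 0.018, adjusted p 1). Dnajc27 differed by 0.126, Hspa4l by -0.113, Dnajb14 by -0.112, Dnajc21 by -0.107 and Dnajc16 by -0.106, each with an adjusted p of 1. Of the 63 well-expressed members, 43 had a difference below 0 (median -0.036), where 52.1% of all genes did. For Dnajb1 the difference was 0.0068 (SE 0.109), and for Hsph1 it was -0.096 (SE 0.107).

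By sign, 18 of the 63 were above 0 in both comparisons, 17 below 0 in both, 23 below 0 for hTNNT2 and above 0 for CMV, and 5 the reverse. Of all well-expressed genes 26.6% were above 0 in both and 25.9% below 0 in both. Of these 13184 genes, 3373 were below 0 for hTNNT2 and above 0 for CMV, and 2882 the reverse. Of the 9 cardiomyocyte markers, 8 were below 0 for hTNNT2 and above 0 for CMV, and their part in these counts was not tested. Across the 63 members, the hTNNT2 and CMV log2 fold changes had a Pearson r of 0.43 and a Spearman rho of 0.35. Within the 13 heat-inducible members r was 0.67 and rho 0.76, and among the other 50 r was 0.13 and rho 0.11. For 13183 genes, Zeb2os left out, r was 0.049 and rho 0.058. These are correlations across genes, which are not independent replicates and share the same libraries, so they describe the tables and carry no p.

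**Figure D4:**
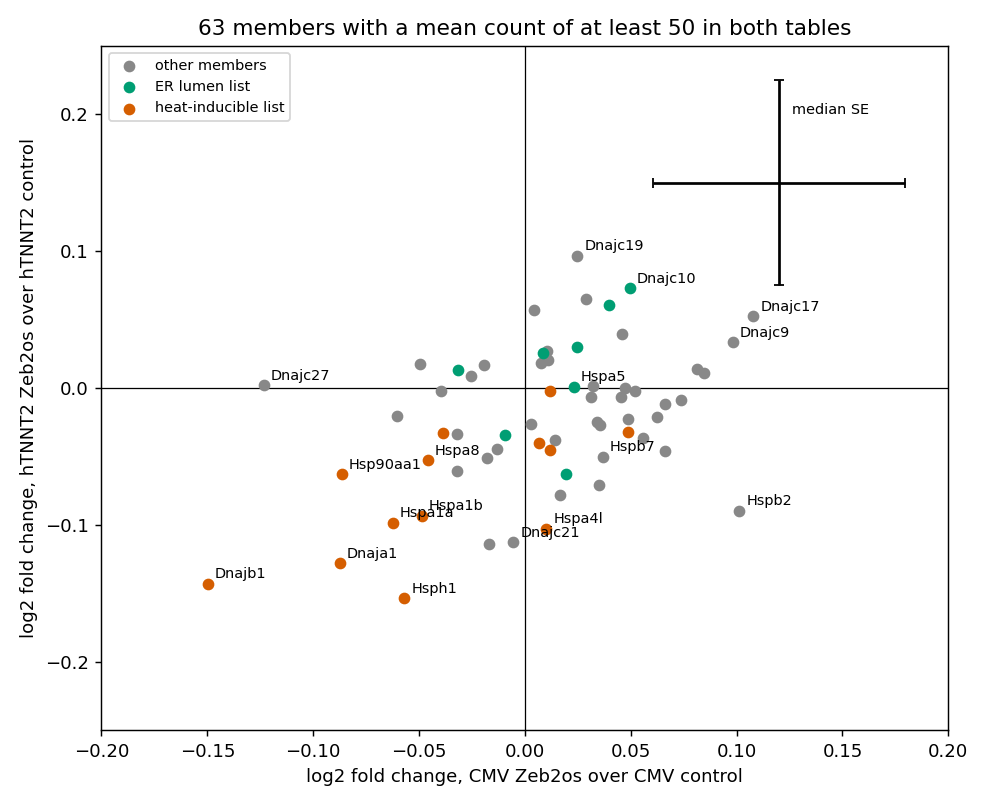
Log2 fold change of the 63 well-expressed members, CMV on the horizontal axis and hTNNT2 on the vertical axis, 1 point per gene, with the median standard error of the members drawn as a cross (0.075 for hTNNT2 and 0.060 for CMV). Dnajb1, Dnaja1, Hsph1, Hspa1a and Hspa1b stand in the lower left quadrant, where 17 of the 63 genes lie.

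The 8 ER members lay mostly above 0, with medians nearer to 0 than those of the heat-inducible list. Above 0 were 6 of 8 for hTNNT2 (median 0.019, where 48.5% of all well-expressed genes were) and 6 of 8 for CMV (median 0.021, where 52.2% were), 5 of them in both. Dnajc10, which reduces disulfide bonds in the ER, had 0.073 (SE 0.054, p = 0.178) for hTNNT2 and 0.050 (SE 0.048) for CMV in the authors' deposited tables. Dnajb11, a partner of Hspa5 in the ER, had -0.063 (SE 0.061) for hTNNT2 and 0.020 (SE 0.055) for CMV in the authors' deposited tables. Dnajc3, which restrains the stress kinase PERK, was below 0 in both, at -0.034 for hTNNT2 and -0.0093 for CMV in the authors' deposited tables. No ER member was called.

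The mean normalised count of a gene was also set side by side between the tables. They were normalised separately and hold different mice, so a ratio can only be read beside those of other genes. The median gene had a ratio of 1.16 (hTNNT2 table over CMV table), with the middle 50% of genes between 1.13 and 1.18. The 13 heat-inducible members had a median of 1.23 and ranged from 1.14 to 1.32, with 12 of them above the upper quartile of all genes and 7 above the 95th percentile of 1.22. The other 50 members had a median of 1.18, and 3 of them were above that percentile. Hspa1a stood highest at 1.32 and Hspa1b next at 1.26, while Hspe1 was the lowest of the list at 1.14. Each mean pools Zeb2os and control hearts, and no error can be given for the ratio.

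**Figure D5:**
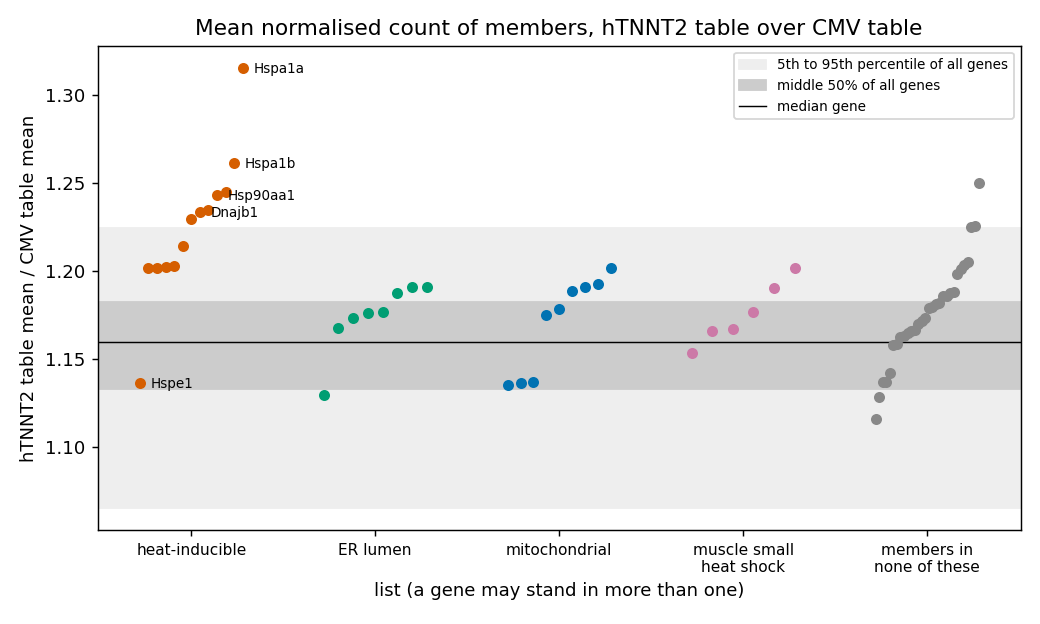
Ratio of the mean normalised count in the hTNNT2 table to that in the CMV table for the well-expressed members, by list, 1 point per gene, with the middle 50% and the 5th to 95th percentile of all genes as grey bands. Of the 13 heat-inducible genes 12 lie above the upper quartile of 1.18, up to 1.32 for Hspa1a, while ER and mitochondrial members stay within the wider band.

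Partners of the family were read from lists of known chaperone genes, with 0 genes called in each. Of all genes, 0.0385% were called for hTNNT2 and 0.00469% for CMV. Of 17 HSP90 co-chaperones, 14 were below 0 for hTNNT2 (median -0.051) and 5 for CMV (median 0.019). Of all well-expressed genes, 51.5% and 47.8% were. Cardiomyocyte markers were below 0 in 9 of 9 cases for hTNNT2 and 1 of 9 for CMV, and their part in the counts of these lists was not tested. Chordc1, a co-chaperone that is itself heat-induced, had -0.20 (SE 0.069, p = 0.00481, adjusted p 0.620) for hTNNT2 and -0.025 (SE 0.066) for CMV in the authors' deposited tables. It was the only co-chaperone of the list with an unadjusted p under 0.05. Fkbp5, known as a glucocorticoid target, had -0.0013 for hTNNT2 and 0.13 (SE 0.071, p = 0.0668) for CMV in the authors' deposited tables. Unc45b, the myosin chaperone of muscle that works with HSP90, had -0.11 (SE 0.069) for hTNNT2 and 0.037 (SE 0.044) for CMV in the authors' deposited tables.

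Of the 11 BAG and other exchange factors, 3 were above 0 for hTNNT2 and 6 for CMV. Of all well-expressed genes, 48.5% and 52.2% were, and the same shares stand beside the counts of the lists below. Bag3, the partner of Hspb8 in chaperone-assisted autophagy, had -0.078 (SE 0.077) for hTNNT2 and 0.012 (SE 0.056) for CMV in the authors' deposited tables. The heat shock factor Hsf1 had -0.064 (SE 0.062) for hTNNT2 and -0.048 (SE 0.055) for CMV, and Hsf2 had -0.017 and 0.061, in the authors' deposited tables. As background, the activity of HSF1 is set mainly after translation and is not read from its messenger RNA. Of the 8 well-expressed subunits of TRiC, the chaperonin of the cytosol, 2 were above 0 for hTNNT2 (median -0.025) and 7 for CMV (median 0.038). Of 6 subunits of prefoldin, which hands actin and tubulin to TRiC, 2 were above 0 for hTNNT2 and 4 for CMV. The 17 genes of ER folding were above 0 in 10 cases for hTNNT2 and 12 for CMV, and the 8 mitochondrial proteases and Trap1 in 3 and 7. In the list of autophagy partners, Optn, an autophagy receptor, had 0.11 (SE 0.063) for hTNNT2 and -0.089 (SE 0.061) for CMV in the authors' deposited tables, a difference of 0.198 with an unadjusted p under 0.05 and an adjusted p of 1.

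The width of the intervals was read from the deposited standard errors. Over the 63 well-expressed members, the median half-width of the 95% interval was 0.147 log2 units for hTNNT2 and 0.117 for CMV, and no interval reached below -0.31 or above 0.25. Over all members with a p-value, 27 of 72 were above 0 for hTNNT2 (median -0.013) and 43 of 71 for CMV (median 0.011). Over all genes with a p-value, 10079 of 21461 were for hTNNT2 (median -0.00080) and 10307 of 21318 for CMV (median -0.00016). The ranges of the intervals hold on the deposited scale only. If the fold changes were shrunken toward 0, they do not bound the true change, least of all in genes of low count. The smallest change that could have been called was not measured.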

How the data were processed

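Total RNA of the heart apex went through removal of ribosomal RNA, per the labels' protocols. The submitters' processing notes name Trim Galore, the builds GRCm38 and mm10, and DESeq2. The aligner, counter, strand setting and tool versions were not given in the sources used here. Per the file headers, the deposited tables give each gene's mean normalised count over 10 libraries, a signal that is never negative. The log2 fold changes, their standard errors and the Wald statistic, a score, were deposited by the authors, together with a p-value and an adjusted p-value. In every row the sign of the statistic was opposite to that of the log2 fold change, and it was turned. Library totals were not given in the sources used here. Sums of mean counts came to 51284505 (hTNNT2) and 44295571 (CMV).

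A gene was called at an adjusted p under 0.05 over the whole table. Intervals are the log2 fold change with its normal 95% range. Lists were described over genes whose mean count was 50 or more. Values of single mice were not analysed here, so sex could not enter a model. Exon lengths and shared 50-base stretches came from GENCODE M21 on GRCm38, in which all 72 members matched. A stretch counted as shared where it stood on either strand of another gene's transcript, so overlapping genes on opposite strands were included. Scripts were tested on simulated data. Python 3.11.15, numpy 2.4.6, pandas 2.3.3, scipy 1.17.1 and matplotlib 3.10.9 were used.

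Members, gene lists and tests were chosen with earlier results of these data known. Named genes were members past the threshold, up to 8 with the largest positive and up to 8 with the largest negative log2 fold change in each comparison, the 8 with the smallest p of the difference, the 2 most abundant of each family, the members of the role lists and, for each partner list, up to 2 genes with the smallest p in each comparison. Dnaja4, Unc45b, Bag3 and Hsf1 were named besides, after their values were seen. Not every gene picked by these rules is described above. Among those left out were Dnajc8 and Dnajc12 (largest positive for CMV), Dnajc14, Dnajc15 and Dnajc24 (largest positive for hTNNT2) and Hspb11 (largest negative for CMV). Alternatives were another threshold, adjustment without the authors' filter, a minimum mean count, centring on the median gene, an empirical null, a trend correction and the family without DNAJ genes.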

Additional observations from a re-analysis of the deposited data

How the results depend on the processing

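No member was called under any alternative run, and the lowest adjusted p of the 55 named members over all settings was 0.781. The median log2 fold change of the members stayed between -0.025 and -0.0084 for hTNNT2 and between 0.00085 and 0.012 for CMV. Signs turned in 3 named members that lay near 0. For hTNNT2, Hspe1 became 0.00019 when centred on the median gene and 0.00046 under the empirical null. For the difference, Dnajc11 became 0.0037 log2 units when centred. Taken from the Wald statistics, which gives a score and not a log2 difference, Dnajc11 had 0.081 and Hspa8 had 0.013. The cause was not tested. No paired analysis was possible because the mice carry no numbers shared across groups and values per mouse were not analysed here, so leaving out single mice was not run either. Library depth was not given in the sources used here, and the smallest change that could have been detected was not measured.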
